A study of Mus musculus with 6 samples.

Results

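The cyclins and CDK inhibitors described here are 10 genes taken by name from a table of 24391 genes: the D-type cyclins Ccnd1, Ccnd2 and Ccnd3, the E-type cyclins Ccne1 and Ccne2, the A-type cyclin Ccna2, the B-type cyclins Ccnb1 and Ccnb2, and the inhibitors Cdkn1a and Cdkn1b. All 10 were found in the table. Their mRNA was measured by sequencing of polyadenylated RNA from Neuro2a cells, a mouse neuroblastoma cell line. There were 3 control libraries, from cells given vehicle, and 3 libraries from cells given D-serine at 5 mM, the mirror-image form of L-serine. Both groups were kept for 18 h in a medium named D-MEM(-SG) with fetal bovine serum. The labels do not say whether the 3 samples of a group came from separate cultures, so the p-values measure only the spread between these samples, which may be technical.

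Total counts lay between 32518483 and 40024265 per library. Of 12 markers of neuroblastoma and sympathoadrenal cells, 11 reached a mean of at least 1 TPM (transcripts-per-million). Their summed level was 1229 to 1242 TPM in control and 1242 to 1274 TPM with D-serine. The sums for fibroblast, macrophage and endothelial markers stayed at or below 3.28 TPM in every library. The library of D-serine replicate 1 stood apart from its fellows: the chi-square statistic per degree of freedom of its counts was 17.7 and 13.9 against D-serine replicates 2 and 3, where the other pairs within a group gave 3.88 to 6.54. Relative to the other libraries it had fewer counts from long genes, with a slope on log2 exonic length of -0.0717 against -0.0040 to 0.0356 elsewhere, so results are also given without it.

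Cyclins are the regulatory subunits of cyclin-dependent kinases (CDKs), and their rise and fall drives a cell through division. D-type cyclins bind CDK4 and CDK6 and start the phosphorylation of the retinoblastoma protein, which releases E2F transcription factors. E-type cyclins, themselves E2F targets, activate CDK2 at the start of DNA synthesis. Cyclin A2 acts in S phase and G2, and B-type cyclins with CDK1 bring about mitosis. Cdkn1a encodes p21, a p53 target, and Cdkn1b encodes p27. Both bind and restrain cyclin-CDK complexes. In a culture of cycling cells, the summed RNA cannot tell fewer cells in a phase from less RNA per cell.

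Promoter sequences are shown first, because Ccnb1 and Ccnb2, which encode closely related proteins, gave different results below, and because Cdkn1a has a described p53 input. A link between promoter letters and these results was not tested. RefSeq (GRCm38.p6) gave promoter windows for 6 of the 10 members, 8 windows in all. Ccna2, Ccnd1, Ccnd2 and Ccne2 had no entry. The stretches of Ccnb2 (chr9:70421540-70421704, minus strand) and Ccnb1 (chr13:100786472-100786636, minus strand) run from 150 bases before the annotated start to 15 bases after it. Capitals mark CCAAT, the letters bound by NF-Y, and TTTGAA, the core of the cell cycle genes homology region (CHR) that recruits the DREAM and MuvB complexes in many mitotic genes.
Ccnb2: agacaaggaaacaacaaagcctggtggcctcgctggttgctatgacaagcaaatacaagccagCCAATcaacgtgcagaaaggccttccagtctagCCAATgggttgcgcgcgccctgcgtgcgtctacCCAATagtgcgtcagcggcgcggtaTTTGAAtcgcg
Ccnb1: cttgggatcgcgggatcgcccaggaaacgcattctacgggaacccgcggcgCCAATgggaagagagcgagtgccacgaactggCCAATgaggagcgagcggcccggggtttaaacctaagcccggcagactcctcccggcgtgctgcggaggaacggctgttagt

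The Ccnb2 window held CCAAT at 3 places, each 33 bases from the next, and TTTGAA 5 bases after the start, with a further TTTGAA starting 167 bases before it, outside the printed stretch. The Ccnb1 window held CCAAT at 2 places, 32 bases apart, and no TTTGAA. The Cdkn1b window, not printed, also held CCAAT at 3 places and no TTTGAA. They lay 161 and 35 bases before the start and, on the other strand, 46 bases after it. Other spellings of the CHR were not searched, so a CHR of other letters could be present. The printed Ccnb1 stretch does hold TTTAAA, which differs from TTTGAA in a single letter, between its CCAAT letters and the start. The Ccne1 stretch printed below holds TTTAAA too, and the share of all windows with it was not counted. Both strands were searched in windows from 250 bases before to 50 bases after each start, and overlaps between motifs were allowed. Among 32851 such windows of all genes, 37.4% held CCAAT at least once, 11.7% at 2 or more places and 3.37% at 3 or more, 17.9% held TTTGAA, and 0.545% held TTTGAA together with CCAAT at 3 or more places. The letters TTTGGCGC and TTTCGCGC, forms of the E2F motif, were in 0.514% and 0.323% of all windows and in 0 of the 8 member windows. At shares this low, 0 of 8 does not tell the members from other genes. Other spellings of the E2F motif were not searched, so E2F sites of other letters could be present. A match is a description of letters, not of a bound site.

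The Ccne1 stretch (chr7:38107476-38107640, minus strand, 150 bases before to 15 after the start) is shown with the GC box GGGCGG, a binding motif of Sp1, in capitals. It is present at 3 places there. At least 1 GC box was in 35.7% of all windows, which are 300 bases long, and the share with more was not counted. The Cdkn1a stretch (chr17:29090889-29090978, plus strand) covers the 90 bases before the more upstream of its annotated starts. Capitals mark exact matches to the p53 decamer, the element that p53 binds as a pair. Decamers with a mismatch were not searched. The capitalised matches are not adjacent, so they need not form such a pair. The letters directly after the downstream match form a decamer that differs from the pattern in its first letter alone. They are left in lower case. At least 1 exact match was found in 8.36% of all windows, and the share with more was not counted.
Ccne1: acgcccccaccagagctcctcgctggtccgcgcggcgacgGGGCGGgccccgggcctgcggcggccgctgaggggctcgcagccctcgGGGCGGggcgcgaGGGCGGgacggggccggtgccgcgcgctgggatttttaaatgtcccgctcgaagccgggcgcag
Cdkn1a: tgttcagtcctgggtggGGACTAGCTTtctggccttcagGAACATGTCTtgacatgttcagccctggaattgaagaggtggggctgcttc

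**Figure D1:**
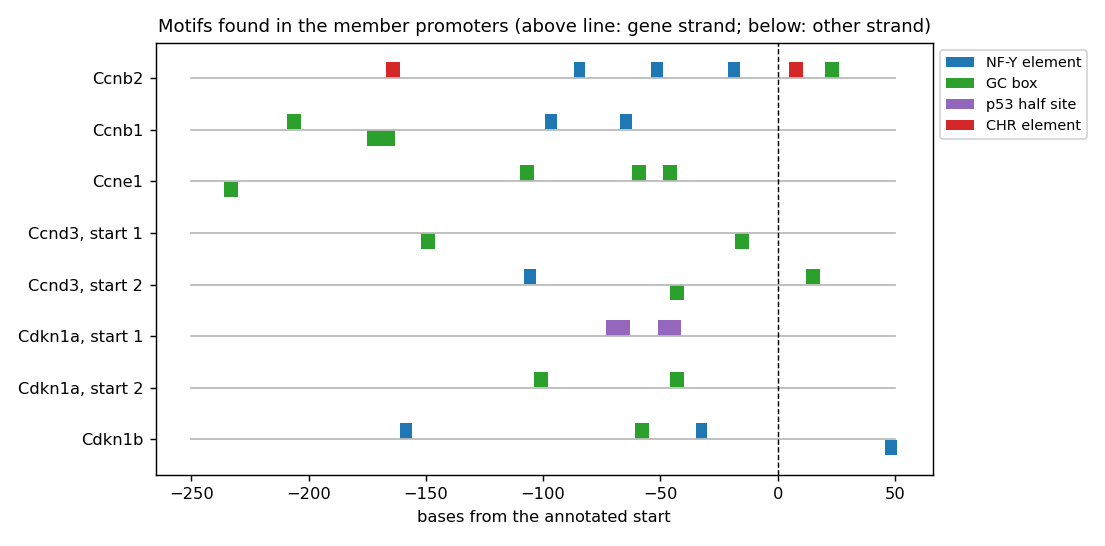
Motifs in the 8 RefSeq promoter windows of 6 members, by distance in bases from the annotated start; blocks above a line lie on the gene's strand and blocks below it on the other. The NF-Y element is CCAAT, the CHR element is TTTGAA and the GC box is GGGCGG. Ccnb2 shows 3 evenly spaced NF-Y elements with TTTGAA just after the start, and Ccnb1 shows 2 NF-Y elements and no TTTGAA. Cdkn1b shows 3 unevenly spaced NF-Y elements and no TTTGAA. Other spellings of the CHR, such as the letters TTTAAA present in Ccnb1, were not searched and are not drawn.

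Levels per exonic length, in TPM over the genes of the table, placed the inhibitor Cdkn1a first in control cells, at 492 ± 10.7 TPM (SD, n = 3). It was followed by Ccnd1 (438 ± 5.89), Ccnb1 (351 ± 3.91), Ccna2 (187 ± 3.39), Cdkn1b (172 ± 8.07), Ccne1 (152 ± 4.76), Ccne2 (97.4 ± 1.78), Ccnd3 (52.0 ± 1.83) and Ccnb2 (28.6 ± 1.57 TPM). The control libraries of neighbours in this order did not overlap. Ccnd2 was at the floor, with 6, 0 and 2 counts in control replicates 1 to 3 and 4, 0 and 6 counts in D-serine replicates 1 to 3, where 3 counts correspond to 0.0332 TPM. It was not tested and no fold is given. With D-serine, Ccnd1 (464 to 488 TPM) lay above Cdkn1a (442 to 444 TPM) in every library, the opposite of the control order. The exchange of places was seen in the values and not tested as such. Ccna2 and Cdkn1b overlapped with D-serine.

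**Figure D2:**
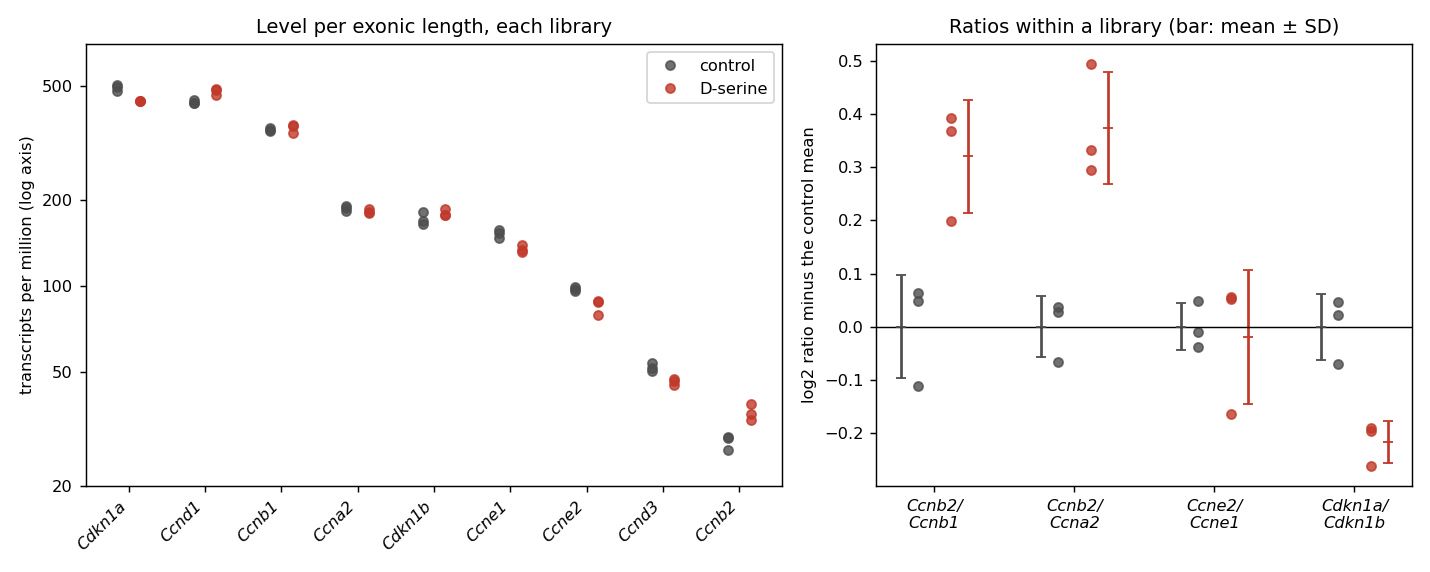
Left, level of each expressed member in TPM on a log axis, with 1 point per library (grey control, red D-serine). Right, log2 ratio of the levels per length of 2 members inside each library, relative to the control mean, with the mean ± SD of 3 libraries; the groups do not overlap for Ccnb2 over Ccnb1, Ccnb2 over Ccna2 and Cdkn1a over Cdkn1b, and overlap for Ccne2 over Ccne1.

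D-serine was compared with control in a fit over 13366 genes. Among the members, the mRNAs of the mitotic cyclin Ccnb2 and of the G1 cyclin Ccnd1 rose with D-serine, the S phase cyclin Ccne2 fell, and the other 6 tested members did not pass the test. Thus 3 of 9 tested members passed an adjusted p of 0.05 in edgeR's quasi-likelihood test, 2 higher and 1 lower. Over all genes tested, 9.74% passed, 4.84% higher and 4.9% lower. In 6 of the 9 members, no D-serine library lay within the control range or the reverse, against 32.9% of all genes tested. The median log2 fold change of the 9 members was -0.017, and that of all genes tested 0.0053. The members' median turned to 0.013 under upper quartile scaling. The largest log2 fold change among the members was that of Ccnb2, at 0.36.

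These calls depended on each control library. When control replicate 1, 2 or 3 was left out, 0 of the members passed. The edgeR adjusted p was then 0.0582, 0.0596 and 0.0548 for Ccnb2, 0.138, 0.114 and 0.0846 for Ccnd1, and 0.0897, 0.102 and 0.0695 for Ccne2. The whole table lost most calls too. Without control replicates 1 and 2, 125 of 13567 and 68 of 13565 genes passed, beside 1302 of 13366 with all libraries. In these fits the log2 fold changes were 0.37 and 0.38 for Ccnb2, 0.13 and 0.15 for Ccnd1, and -0.17 and -0.18 for Ccne2. Without D-serine replicate 3, Ccnb2 passed and Ccnd1 and Ccne2 did not (adjusted p = 0.113 and 0.0638). Without D-serine replicate 1, the library with few counts from long genes, 5 members passed: Ccnb2, Ccnd1, Ccne1, Ccne2 and Cdkn1a. Of these, 2 were higher and 3 lower, where 6.76% of all genes were lower. The part of D-serine replicate 1 in the results was not tested beyond this and the removal of the length trend. That removal gave 6 members, the same 5 and Ccnd3, where 2043 of 13366 genes passed.

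**Figure D3:**
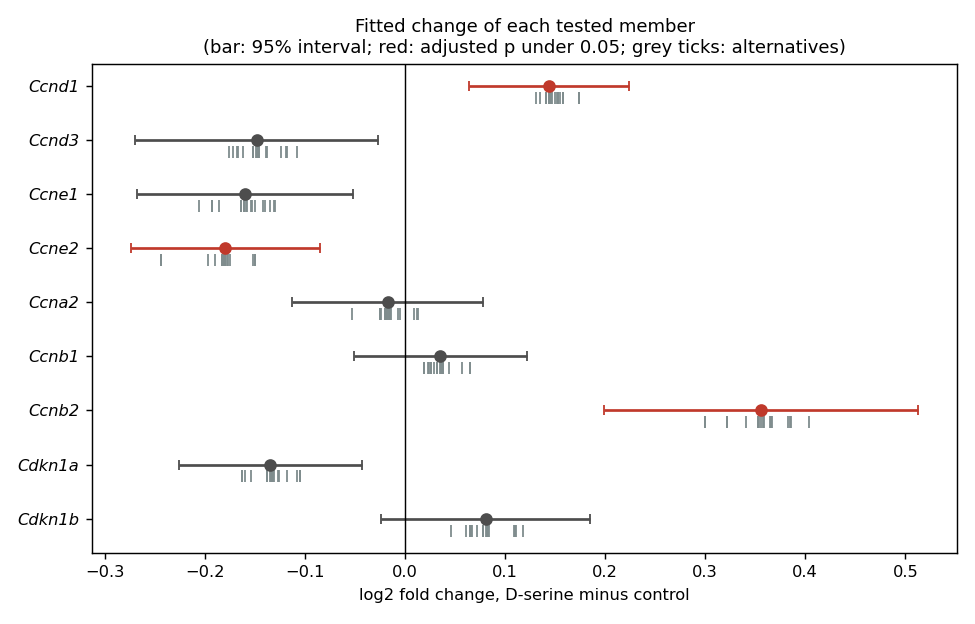
Fitted log2 fold change of the 9 tested members, D-serine minus control, with its 95% interval (horizontal bars); red marks an adjusted p under 0.05 and each grey tick is the value under 1 of the 18 alternatives. Ccnb2 and Ccnd1 lie to the right of 0, Ccne2 to the left, and the ticks of Ccna2 fall on both sides.

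Of the D-type cyclins, Ccnd1 is the form that growth signals induce in G1, and Ccnd3 is a relative that can replace it in many cells. Ccnd1 (chromosome 7, 152115836 to 152125830, minus strand, position as deposited) was at 687, 711 and 706 counts-per-million (CPM) in control replicates 1 to 3 and at 774, 767 and 784 CPM in D-serine replicates 1 to 3. All 3 D-serine libraries were above all control libraries. The log2 fold change was 0.14 (SE 0.0372, edgeR adjusted p = 0.0309), a rise from 701 ± 12.7 to 775 ± 8.79 CPM (SD, n = 3 each). Without D-serine replicate 1 it was 0.15, with an edgeR adjusted p of 0.00492.

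Ccnd3 (chromosome 17, 47642000 to 47736637, plus strand, as deposited) had 48.5, 47.9 and 52.2 CPM in the control libraries and 46.4, 44.6 and 43.2 CPM with D-serine. The D-serine libraries were all below the control libraries, but the difference did not pass the test (log2 fold change -0.15, SE 0.0561, 95% interval -0.27 to -0.028, edgeR adjusted p = 0.107). With the length trend removed it passed, at -0.17 and an adjusted p of 0.033. Ccnd3 shares 358 exonic bases (15.8% of its length) with Bysl on the opposite strand, and since the strand setting of the counting is not given, its counts are uncertain. Bysl had a log2 fold change of 0.089 (edgeR adjusted p = 0.264). Ccnd1 made up 88.95% to 89.84% of the summed D-type cyclin TPM in control and 90.85% to 91.53% with D-serine. The D-type sum was 487 to 495 TPM in control and 511 to 533 TPM with D-serine, without overlap (exact two-sided permutation p = 0.1, the lowest value possible with 3 against 3, and 0.15 adjusted over the 3 families).

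Of the E-type cyclins, which fire CDK2 at the start of S phase, both were lower in every D-serine library than in any control library. Ccne2 (chromosome 4, 11118498 to 11131926, plus strand, as deposited) had 133, 132 and 132 CPM in the control libraries and 112, 118 and 119 CPM with D-serine. The control values were nearly equal and D-serine replicate 1 was the lowest. The log2 fold change was -0.18 (SE 0.0436, edgeR adjusted p = 0.0253), and it was -0.15 without D-serine replicate 1 (adjusted p = 0.0142). Ccne2 shares 1734 exonic bases, 53.9% of its length, with the antisense gene Ints8, which makes its counts uncertain. Ints8, at 40.3 ± 1.32 CPM in the control libraries and 38.7 ± 1.92 CPM with D-serine, had a log2 fold change of -0.059 (edgeR adjusted p = 0.541).

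Ccne1 (chromosome 7, 38883003 to 38892509, minus strand, as deposited) shares no exonic base with another gene of the table. It had 127, 121 and 129 CPM in the control libraries and 119, 108 and 109 CPM with D-serine. D-serine replicate 1 was the closest to control. The log2 fold change was -0.16 (SE 0.050, 95% interval -0.27 to -0.053) and missed the threshold at an edgeR adjusted p of 0.0595. It passed without D-serine replicate 1 (-0.21, adjusted p = 0.00306). The summed TPM of Ccne1 and Ccne2 was 244 to 255 in control and 218 to 221 with D-serine (exact two-sided permutation p = 0.1, the smallest possible, 0.15 adjusted over 3 families). Of this sum, Ccne1 gave 60.19% to 61.61% in control and 60.07% to 63.66% with D-serine, so the 2 groups overlapped in the balance of the E-type cyclins.

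Of the cyclins of S phase, G2 and mitosis, Ccnb2, the less abundant B-type cyclin, rose, whereas Ccna2 and Ccnb1 had intervals around 0. Ccnb2 (chromosome 9, 70255496 to 70269361, minus strand, as deposited) had 18.8, 19.2 and 17.7 CPM in the control libraries and 24.2, 24.9 and 22.1 CPM with D-serine. Every D-serine library was above every control library. The log2 fold change was 0.36 (SE 0.0727, 95% interval 0.20 to 0.51, edgeR adjusted p = 0.0142). With an exonic length of 1541 bases it is the shortest of the members, and with the length trend removed the log2 fold change was 0.30 (adjusted p = 0.00985). Without D-serine replicate 1 it was 0.34 (adjusted p = 0.00819).

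Ccnb1 (chromosome 13, 101548694 to 101556441, minus strand, as deposited), the main mitotic cyclin, had 337, 340 and 353 CPM in the control libraries and 347, 351 and 357 CPM with D-serine. The groups overlapped, and the log2 fold change was 0.035 (95% interval -0.051 to 0.12, edgeR adjusted p = 0.603). Ccna2 (chromosome 3, 36463787 to 36470918, minus strand, as deposited) had 219, 225 and 221 CPM in the control libraries and 230, 211 and 216 CPM with D-serine, with D-serine replicate 1 the highest and D-serine replicate 2 the lowest of all. Its log2 fold change was -0.017 (95% interval -0.11 to 0.078, edgeR adjusted p = 0.838), and 0.013 under upper quartile scaling. Ccna2 shares 378 exonic bases (13.4%) with Exosc9 on the opposite strand, which had a log2 fold change of 0.088 (edgeR adjusted p = 0.398). The summed B-type TPM overlapped between the groups, at 378 to 383 in control and 377 to 402 with D-serine (exact two-sided permutation p = 0.4).

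The inhibitors did not pass the test. Cdkn1a, p21 (chromosome 17, 29227931 to 29237667, plus strand, as deposited), had 405, 421 and 435 CPM in the control libraries and 393, 375 and 381 CPM with D-serine. All D-serine libraries were lower than all control libraries. The log2 fold change was -0.13 (SE 0.0424, 95% interval -0.23 to -0.043, edgeR adjusted p = 0.0611), and -0.15 without D-serine replicate 1, where it passed (adjusted p = 0.00714). Cdkn1b, p27 (chromosome 6, 134870419 to 134875543, plus strand, as deposited), had 165, 183 and 174 CPM in the control libraries and 186, 177 and 189 CPM with D-serine. Its groups overlapped, and the log2 fold change was 0.081 (95% interval -0.024 to 0.19, edgeR adjusted p = 0.298).

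**Figure D4:**
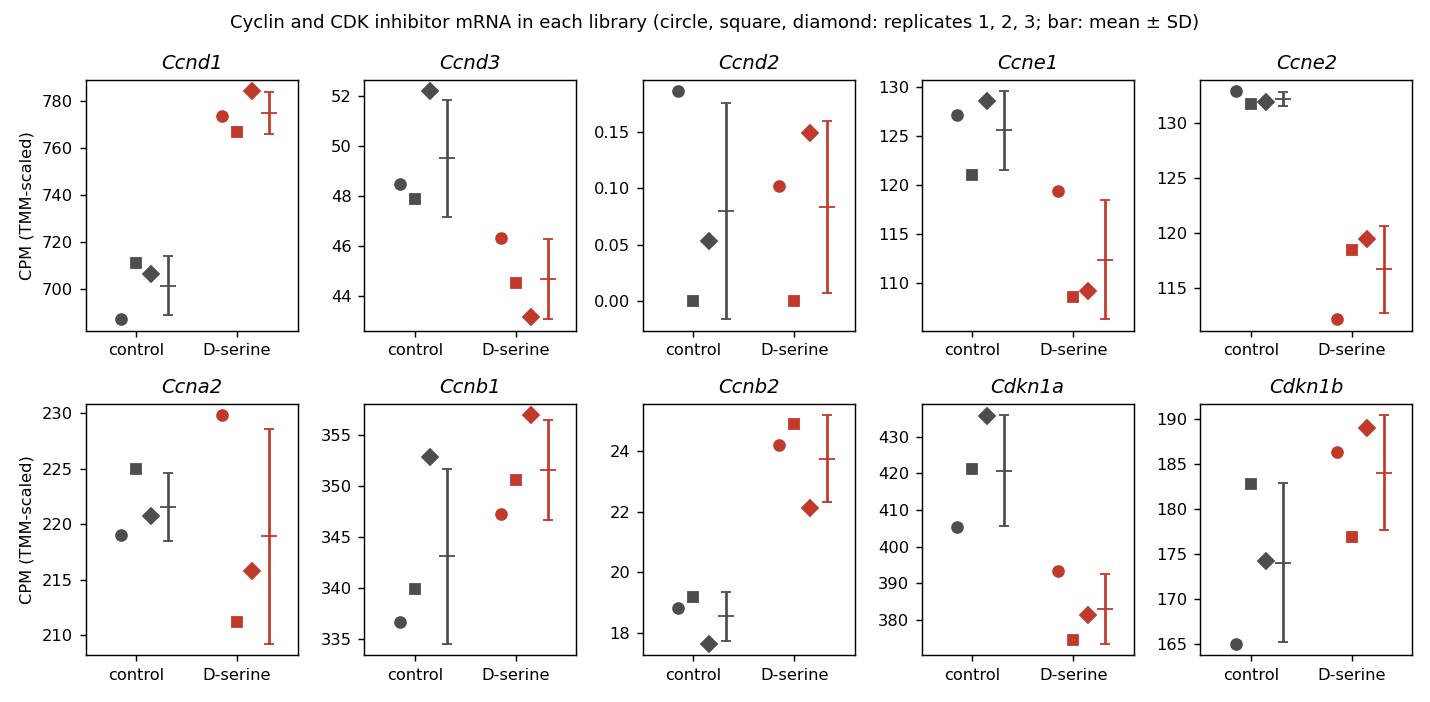
TMM-scaled CPM of the 10 members in each library (circle, square and diamond are replicates 1, 2 and 3; bars show mean ± SD of 3 libraries; each panel has its own axis, which need not start at 0). The D-serine points lie apart from the control points for Ccnd1, Ccnd3, Ccne1, Ccne2, Ccnb2 and Cdkn1a, and among them for Ccna2, Ccnb1 and Cdkn1b.

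Differences between members were read from ratios inside a library, which do not depend on library scaling. The level of Ccnb2 per exonic length was 0.084, 0.0849 and 0.0752 of that of Ccnb1 in control replicates 1 to 3 and 0.105, 0.107 and 0.0932 of it in D-serine replicates 1 to 3. The groups did not overlap, and the log2 ratio differed by 0.32 (exact two-sided permutation p = 0.1, the smallest possible, 0.133 adjusted over 4 ratios). The log2 ratio of Ccnb2 to Ccna2 was higher by 0.37 with D-serine, again without overlap and with the same p-values. The ratio of Cdkn1a to Cdkn1b was 2.92, 2.74 and 2.97 in control and 2.51, 2.51 and 2.39 with D-serine. Its log2 value fell by 0.22, without overlap (exact two-sided permutation p = 0.1, 0.133 adjusted over 4 ratios). The log2 ratio of Ccne2 to Ccne1 was -0.64 ± 0.044 in control and -0.66 ± 0.13 with D-serine (SD, n = 3 each) and overlapped (exact permutation p = 1.0). Of these ratios none could reach a p under 0.1 with 3 libraries a group.

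The kinases that these cyclins activate and their partners were next compared. Of 8 tested genes of CDK catalytic and partner subunits, 1 fell and 0 rose in the edgeR test, beside 9.74% of all genes tested that passed. This split turned with the scaling. With library totals 0 were lower and 2 higher (7.06% of all genes higher). With upper quartile scaling 0 were lower and 1 higher (6.84% of all genes higher). At an unadjusted edgeR p under 0.05, 4 were higher and 1 lower, 62.5% of the 8, beside 28.2% of all genes tested. Cdk2, the kinase of cyclins E and A, had 159, 155 and 162 CPM in the control libraries and 144, 137 and 142 CPM in those with D-serine, without overlap. It fell by 0.17 on the log2 scale (SE 0.0426, edgeR adjusted p = 0.0266). Its adjusted p was above 0.05 with upper quartile scaling (0.0582) and with library totals (0.0504). It was also above 0.05 with the replicate block (0.075, and 0.0861 with the GC trend also removed). The same held when any library other than D-serine replicate 1 was left out (0.055 to 0.0967). With the length trend removed, Cdk2 had an edgeR adjusted p of 0.00167, and of 0.00333 with the block added. Cdk4, the kinase of D-type cyclins, had a log2 fold change of 0.16 (edgeR adjusted p = 0.087), which passed with library totals (0.19, adjusted p = 0.0497) and was 0.087 with the length trend removed (adjusted p = 0.107). For Cdk1, the kinase of B-type cyclins, it was 0.042 (edgeR adjusted p = 0.593). Both were chosen after their values were seen. Cdk6 had too few counts to be tested. The list's median was 0.11, beside 0.0053 for all genes tested, and 0.053 without D-serine replicate 1.

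Of the genes of the retinoblastoma and E2F family, 5 of 13 fell and 0 rose, beside 4.9% of all genes tested that fell, and the list's median log2 fold change was -0.15. E2f7, an atypical E2F that represses E2F targets, had 263, 234 and 224 CPM in the control libraries and 177, 200 and 197 CPM with D-serine. No library overlapped, and the log2 fold change was -0.33 (SE 0.0625, edgeR adjusted p = 0.0119). E2f8, its close relative, fell by 0.22 on the log2 scale (adjusted p = 0.0142). The activator E2f2 fell from 320 ± 5.97 to 277 ± 2.50 CPM (log2 fold change -0.21, edgeR adjusted p = 0.0115). The other two were E2f3 (-0.17, edgeR adjusted p = 0.0286) and Rbl1, which encodes the pocket protein p107 (-0.20, adjusted p = 0.033), both named after their values were seen. The count of 5 became 0 when either of control replicates 1 and 2 was left out. It was 3 on leaving out the third control library, 7 on leaving out D-serine replicate 1 and 2 on leaving out D-serine replicate 3.

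In the 7 other lists, with 69 tested entries (Ccng1 is in both the other cyclins and the p53 list), 0 passed the edgeR threshold. At an unadjusted edgeR p under 0.05, 2 were higher and 16 lower, and DESeq2 called 1 higher and 4 lower. These are 26.1% of the 69 entries, beside 28.2% of all genes tested. For DESeq2 they are 7.25%, beside 12.3%. Neither pooled share was above that of all genes. In the list of G2 and mitosis both shares were above it (53.8% of 13, 7 lower and 0 higher, and 15.4% with DESeq2). The list of other CDK inhibitors was also above it (33.3% of 6, 1 higher and 1 lower, and 16.7% with DESeq2). Values are log2 fold changes, and the genes named are the 2 most abundant of each list. The 13 genes of G2 and mitosis had a median of -0.097, 10 of them below 0, opposite in sign to Ccnb2. Top2a, the topoisomerase of mitotic chromosomes, was at -0.12 (edgeR adjusted p = 0.0798), and Cenpf, a kinetochore protein, at -0.20 (adjusted p = 0.0734). With the length trend removed they were at -0.067 and -0.045 (edgeR adjusted p = 0.118 and 0.48), and without control replicate 1 Cenpf was at -0.12. In this list 5 genes passed without D-serine replicate 1, all lower, where 6.76% of all genes were lower. With the length trend or the GC trend removed 4 passed, all lower, and 0 passed when any control library was left out. The 7 genes of the B-Myb, FoxM1 and MuvB machinery, which drives transcription of mitotic genes through the CHR, had a median of -0.012 (0.018 under upper quartile scaling). Among them Rbbp4 was at 0.0033 and Mybl2 at -0.068 (edgeR adjusted p = 0.973 and 0.411).

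The 6 CDK-activating phosphatases and inhibitory kinases had a median of -0.024 (0.0054 under upper quartile scaling), with Cdc25a at -0.0087 and Wee1 at -0.041 (edgeR adjusted p = 0.919 and 0.576). The 14 genes of cyclin and inhibitor degradation had a median of -0.0054 (0.024 under upper quartile scaling), with Dtl, which directs p21 to destruction, at -0.11 and Fbxw11 at -0.050 (edgeR adjusted p = 0.0934 and 0.449). The 12 other cyclins tested had a median of -0.057, with Ccni at -0.040 and Ccnl2 at -0.057 (edgeR adjusted p = 0.597 and 0.476). The 6 other CDK inhibitors had a median of -0.035, with Cdkn2a at -0.062 and Cdkn2c at -0.0080 (edgeR adjusted p = 0.638 and 0.965). Cdkn3, a phosphatase of CDKs named after its values were seen, was the gene of this list that DESeq2 called, with 5.98, 3.88 and 5.10 CPM in the control libraries and 6.50, 7.91 and 6.83 CPM in those with D-serine. Its groups did not overlap (log2 fold change 0.51, SE 0.154, edgeR adjusted p = 0.0535). The 11 genes of p53 and its targets other than Cdkn1a had a median of -0.033. Trp53, which encodes p53, was at -0.033 and Mdm2, its ubiquitin ligase and target, at -0.088 (edgeR adjusted p = 0.667 and 0.179). These values stand beside that of Cdkn1a, at -0.13.

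**Figure D5:**
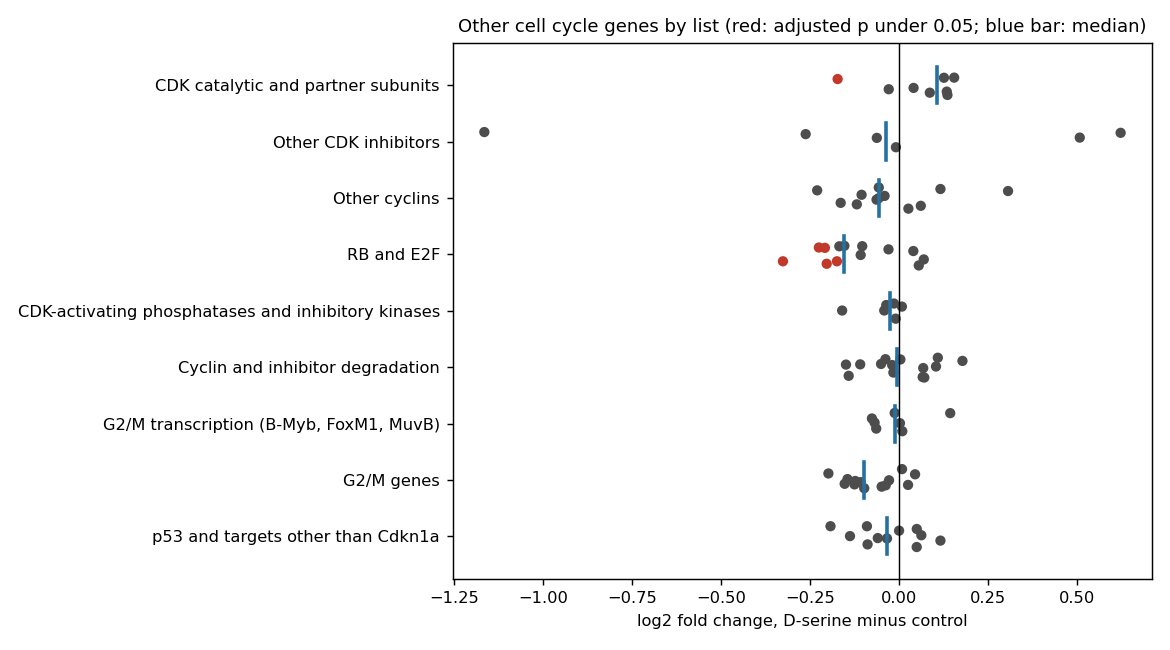
Log2 fold change of each tested gene of the 9 other cell cycle lists (1 point per gene, vertical position within a row arbitrary), with red for an edgeR adjusted p under 0.05 and a blue bar at the list's median. The red points are Cdk2 and 5 genes of the retinoblastoma and E2F list, all left of 0.

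The genes whose log2 CPM followed each changed cyclin most closely were taken from 7549 genes with a mean of at least 20 CPM, over the 6 libraries, which share the group difference and the library scaling. They were Mlkl, Wsb1 and Gtf3c5 for Ccnb2 (Pearson's r 0.998, 0.989 and 0.987), Vma21, Neurl3 and Cetn3 for Ccnd1 (0.996, 0.995 and 0.993), and Tatdn2, Nf2 and Crybg3 for Ccne2 (0.998, 0.998 and 0.996). With 6 libraries such values are common: 49, 151 and 336 genes reached an r of 0.95 for Ccnb2, Ccnd1 and Ccne2.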

How the data were processed

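Polyadenylated RNA of 3 control and 3 D-serine samples was measured. The authors deposited raw counts per gene with exonic lengths, in a featureCounts layout per the file headers. The submitters' processing notes name bcl2fastq, Trim Galore, HISAT2, featureCounts, Subread, DESeq2, GRCm38 and mm10. Of 23128 genes matched to RefSeq GRCm38, however, only 313 had the same start, so positions of genes are given as deposited, from a build not given in the sources used here. Strand and multi-mapping settings are likewise not given. Libraries were matched by title, with vehicle columns as control. Symbols of 27 genes that had become dates were kept as separate features.

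Counts were tested with edgeR 4.0.16 in R 4.3.3 (filterByExpr, TMM, quasi-likelihood F test, no covariate, Benjamini-Hochberg over all genes tested, threshold 0.05). CPM values use TMM-scaled library sizes, TPM the deposited counts and lengths. SE is the log2 fold change divided by the square root of F. Alternatives were DESeq2 1.42.0, limma-voom 3.58.1, 3 other scalings, 2 other filters, a replicate block, removal of length or GC trends (splines with 5 degrees of freedom), and leaving out each library. The fits with 5 libraries leave a group with 2.

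The members and lists were chosen with earlier results of these data known. The rule named all members, up to 3 called genes per list, otherwise its 2 most abundant genes, and the 3 genes most like each called member. The ratio of Ccnd1 to Ccnd2 was not computed because Ccnd2 had libraries with 0 counts.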

Additional observations from a re-analysis of the deposited data

How the results depend on the processing

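The number of members past the edgeR threshold (3) was 5 with DESeq2, 5 with no filter on low counts, 6 with the length trend removed, 6 with that removal and the replicate block, and 1 with the replicate block alone. Over the 6 fits that each left out 1 library it ran from 0 to 5, the genes past the threshold from 68 to 1699, the higher genes from 47 to 783 and the lower genes from 21 to 916. All genes past the threshold numbered 1645 with DESeq2, 1867 with no filter and 1900 with the length trend removed and the block, beside 1302 as reported. They numbered 298 with the replicate block (178 higher, 120 lower), 378 with the GC trend removed and the block (227 and 151), and 2043 with the length trend removed (1023 and 1020). Lower genes numbered 412 under upper quartile scaling, 412 with library totals and 987 with no filter. The share of higher genes among the calls was 49.7% as reported, 68.9% under upper quartile scaling and 69.6% with library totals.

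Replicate numbers were not taken as pairs: deviations of same-numbered libraries correlated at -0.265, 0.045 and -0.040. With the block, Ccnb2 passed (edgeR adjusted p = 0.0443), and Ccnd1 (0.0981) and Ccne2 (0.075) did not. Nor did Cdk2 (0.075), and 0 of the 5 lower genes of the retinoblastoma and E2F list passed, against 1 with the GC trend also removed. With the block and the length trend removed, all 4 passed: Ccnb2 (edgeR adjusted p = 0.0103), Ccnd1 (0.00405), Ccne2 (0.00637) and Cdk2 (0.00333). In that fit 6 genes of the retinoblastoma and E2F list were lower, where 955 of 13366 genes were lower.

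Signs turned in values near 0. Under upper quartile scaling and library totals, Ccna2 was at 0.013 and 0.012, Cdkn2c at 0.022 and 0.021, and Cdc25a at 0.021 and 0.020. With the GC trend removed, Cdkn2c was at 0.0024, and with the block added Cdkn2c was at 0.0018 and Rbbp4 at -0.0011. Leaving out 1 library gave ranges of -0.054 to 0.0084 for Ccna2, -0.062 to 0.053 for Cdkn2c, -0.032 to 0.028 for Rbbp4, -0.020 to 0.0069 for Cdc25a, -0.13 to 0.0084 for Cdkn2a and -0.056 to 0.0013 for Trp53. The difference in the log2 ratio of Ccne2 to Ccne1 was 0.012 with the length trend removed, with or without the block, and, leaving out 1 library, ran from -0.056 to 0.054 (0.0055 when control replicate 2 was left out). Causes were not tested. Ccnd2, with 0 to 6 counts a library, could not be compared at this depth. With 3 libraries a group, the exact tests of ratios and sums could not pass.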
